A study of Mus musculus with 9 samples.

Results

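The nuclear-encoded respiratory chain genes were taken as every row of the deposited count table whose gene symbol begins as those of the subunits and assembly factors of complexes I to V do (Nduf followed by a, b, c, s or v, Cox followed by a digit, Atp5 and Uqcr, and the genes Sdha to Sdhd). These were 111 of 23018 rows, of which 101 carried the symbol in the table and 10 were named from their Ensembl identifier. Of the 111 rows, 10 are processed pseudogenes and 2 are second rows of a symbol already present (Ndufa13 and Cox17), which leaves 99 gene rows. Complex I has 44 of these, complex II 4, complex III 8, complex IV 27 and complex V 16. The rule reads names and uses no measured value.

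RNA was sequenced from lymphatic endothelial cells, the cells that line lymphatic vessels, sorted as CD45- CD31+ PDPN+ cells from meninges, diaphragm or skin. The mice were untreated wild type C57/Bl6 males aged 10 weeks, with 3 libraries per tissue, named Meninges, Diaphragm and Skin 1 to 3. Which animals, or how many, went into a library is not in the labels, and every p-value below therefore rests on library-to-library spread that may be technical. In bulk samples such as these, fewer cells of a type and less RNA per cell cannot be told apart.

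Respiratory complexes I to IV carry electrons to oxygen and, apart from complex II, move protons across the inner mitochondrial membrane, and complex V, the ATP synthase, uses the proton gradient to make ATP. Complex II is also an enzyme of the citric acid cycle, and it is the only one of the 5 complexes with every subunit encoded in the nucleus. Endothelial cells are known for drawing much of their ATP from glycolysis, while their mitochondria also serve biosynthesis and signalling.

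The libraries held 26075366 to 34592850 counts on 13241 to 17245 genes. Prox1, the transcription factor that defines lymphatic identity, lay between 716.5 and 2042 counts per 1000000 (CPM) in all 9 libraries. CPM here is on library sizes scaled with TMM, a normalization on the middle of the genes. Summed over 7 lymphatic markers, meninges had 14580, 6127 and 10450 CPM and diaphragm 13110, 16960 and 19080 CPM. Skin had 19640, 19050 and 19040 CPM, above every meningeal library. Of the 7, Lyve1 was called lower in meninges than in skin (log2 fold change -1.63, SE 0.34, adjusted p 0.0326, edgeR quasi-likelihood test). Markers of other cells moved with tissue as well. Summed fibroblast markers (9 genes, 0 of them at 0 in any tissue) lay at 1943 to 8368 CPM in meninges, against 1474 to 1792 in diaphragm and 586.5 to 1517 in skin. Summed mesothelium markers lay at 0 to 3.44 CPM in meninges and 31.2 to 996.9 in diaphragm, against 0 in skin. Mural cell markers summed to 553.7 to 1347 CPM in meninges and 339.0 to 557.0 in diaphragm, against 39.3 to 297.4 in skin. Of these markers, edgeR called the mesothelial Muc16, counted in diaphragm alone, lower in meninges than in diaphragm (adjusted p 0.0186). It called the mural Notch3 and the fibroblast Col3a1 higher in meninges than in skin (edgeR adjusted p 0.0235 and 0.0496). Leukocyte markers stayed at or under 125.6 CPM in every library, and keratinocyte markers at or under 2.08 CPM apart from Skin 2, with 132.7. The part of these cells, and of the uneven lymphatic markers, in the differences below was not tested.

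Complex V supplied the most abundant transcripts. Atp5b, the catalytic beta subunit, had the highest level of the 99 genes, with a mean over the 9 libraries of 458.2 CPM, or 239.1 CPM per kilobase of transcript. Atp5a1, the alpha subunit that forms the F1 head with it, followed at 117.1 CPM per kilobase. Both together held between 19.9% (Skin 3) and 31.5% (Diaphragm 3) of the summed CPM of the 99 genes. Next per kilobase came Cox6c (93.8), a small subunit of cytochrome c oxidase, Atp5h (84.1), a stalk subunit of the synthase, and Atp5c1 (80.6), the gamma subunit that turns inside the F1 head. At the other end, Ndufa4l2 (0.0189), Cox11 (0.0997), Cox20 (0.213), Cox19 (0.539) and Cox4i2 (0.719) were the lowest per kilobase. Among these, Cox11, Cox19 and Cox20 are assembly factors of complex IV, and the other two are alternative isoforms.

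**Figure D1:**
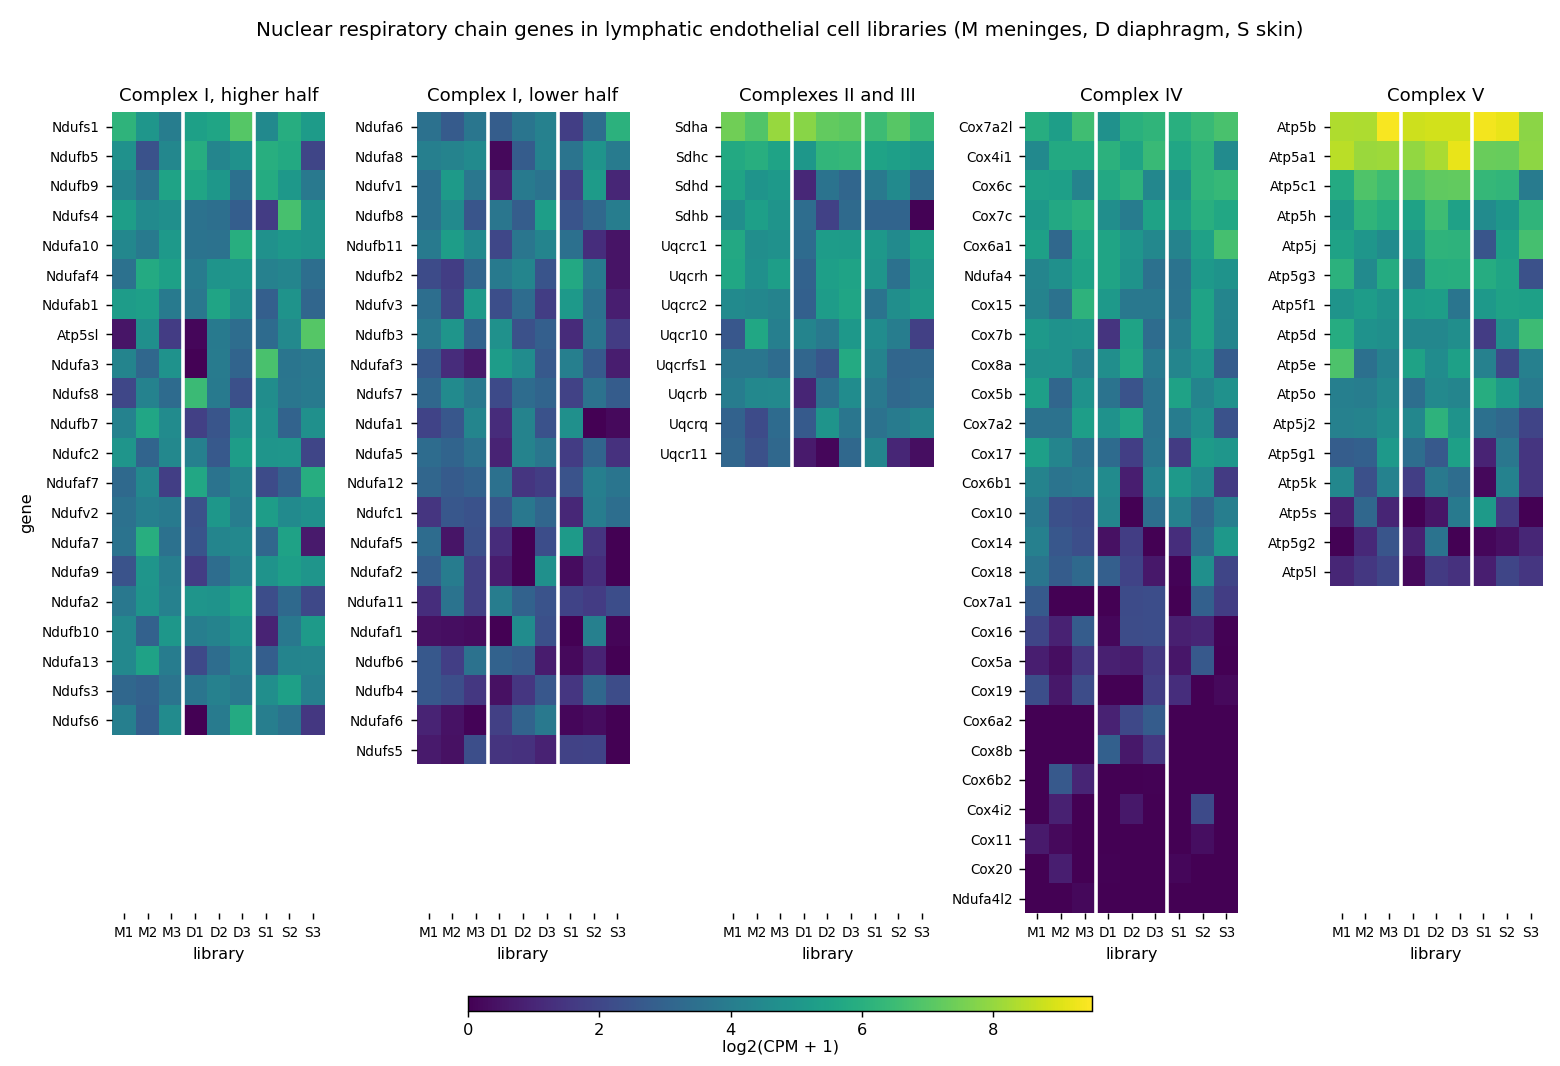
Level of the gene rows (rows, ordered by mean level within a complex) in each library (columns, M meninges, D diaphragm, S skin), as log2(CPM + 1) in colour. Atp5b and Atp5a1 are the brightest rows, and the dark rows at the foot of complex IV are the isoforms and assembly factors that were at 0 in most libraries.

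Most of the genes were detected in every library. In all 9 libraries, 77 of the 99 genes had at least 1 count, 9 had one in 8 libraries and 13 in 7 or fewer. This was so for 4 of 4 genes of complex II and 8 of 8 of complex III, and for 36 of 44 of complex I, 15 of 27 of complex IV and 14 of 16 of complex V. The number of genes at 0 was 4 in Meninges 2 and 6 each in Meninges 1 and 3, against 9, 8 and 6 in Diaphragm 1, 2 and 3 and 8, 7 and 14 in Skin 1, 2 and 3. The library with the most, Skin 3, also had the fewest genes with a count in the whole table. As shares of the 99 genes these were 4.04% to 6.06% in meninges, 6.06% to 9.09% in diaphragm and 7.07% to 14.1% in skin. Over all tested genes the shares at 0 were 6.51% to 7.09%, 11.2% to 15.0% and 10.5% to 20.3%, so they differed between the tissues as well. Cox5a, a structural subunit of every complex IV, was counted low in these libraries, at 0 to 5.32 CPM.

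Summed over the 99 genes on TMM-scaled sizes, the 3 tissues overlapped. The sums were 2750, 2555 and 3076 CPM in meninges and 2432, 2825 and 3309 CPM in diaphragm, against 2596, 2892 and 2345 CPM in skin. The range over all 9 libraries spanned 1.41-fold. On plain library totals the meningeal sums, 2999 to 3364 CPM, lay above the skin sums, 1900 to 2676 CPM, so the overlap of these tissues depends on the scaling. With mitochondrially encoded counts left out of the totals they overlapped again, at 3524 to 4220 CPM in meninges and 2838 to 4056 CPM in skin. Those counts, mostly ribosomal RNA, made up 12.5% to 25.5% of the totals in meninges and 29.25% to 34.0% in skin. Complex I summed to 713 ± 96.1 CPM in meninges and 727 ± 141 CPM in diaphragm, against 774 ± 87.5 CPM in skin (SD, n = 3 each). With plain library totals in place of TMM the order of these 3 means turned round, to 811 CPM in meninges and 716 CPM in diaphragm, against 689 CPM in skin, so no order is given for complex I.

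Complex V summed to 1157 ± 197 CPM in meninges and 1311 ± 261 CPM in diaphragm, against 1015 ± 159 CPM in skin, and complex IV to 459 ± 98.1 CPM in meninges and 410 ± 33.6 CPM in diaphragm, against 524 ± 144 CPM in skin (SD, n = 3 each). The libraries of the tissues overlapped in both complexes on this scale. On plain library totals complex V lay at 1157 to 1480 CPM in meninges and 1079 to 1451 CPM in diaphragm, against 674.9 to 1034 CPM in skin, where skin did not overlap with the others. With mitochondrially encoded counts left out of the totals, skin (up to 1524 CPM) overlapped with meninges (from 1322 CPM) and diaphragm (from 1375 CPM). Complex III varied most between the diaphragm libraries, with 170.0, 160.9 and 147.9 CPM in meninges and 56.0, 171.9 and 258.6 CPM in diaphragm, against 158.9, 104.4 and 145.5 CPM in skin. The low value is Diaphragm 1, which had the lowest level of the 9 libraries for Uqcrc1, Uqcrc2, Uqcrb and Uqcrh, a set chosen after the values were seen.

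**Figure D2:**
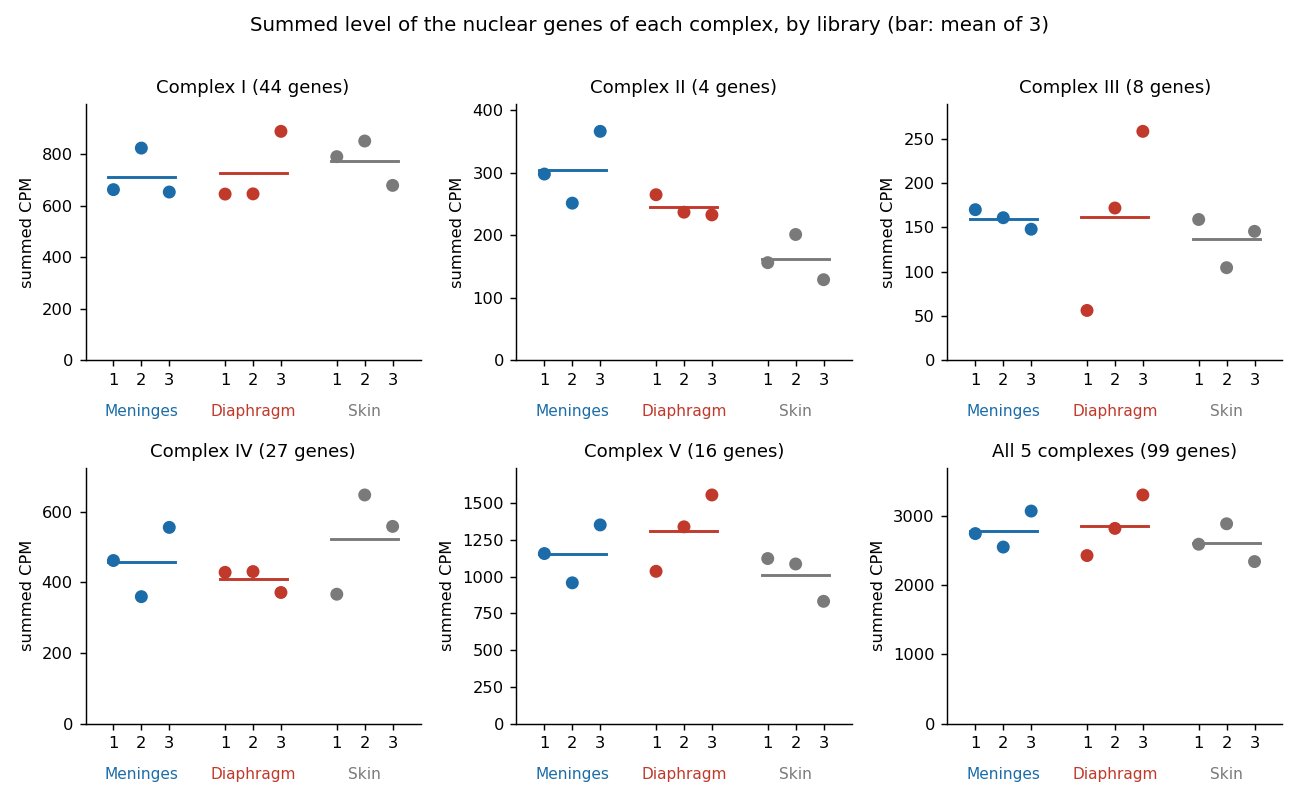
Summed CPM of the nuclear genes of each complex and of all 5 (vertical axis, from 0) in each of 3 libraries of meninges, diaphragm and skin (points), with the tissue mean as a bar. On this TMM scale the skin points of complex II, 128.6 to 201.0 CPM, lie below every point of both other tissues, and those of the other complexes do not. On plain library totals complex V separates skin as well, but not once mitochondrially encoded counts are left out of them.

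Complex II, succinate dehydrogenase, was the complex whose sum separated skin from both other tissues on TMM-scaled sizes and on plain library totals alike. Its 4 genes summed on the TMM scale to 297.8, 251.2 and 366.2 CPM in meninges and 264.7, 236.7 and 232.4 CPM in diaphragm, against 155.9, 201.0 and 128.6 CPM in skin. Both meninges and diaphragm lay above skin without overlap. On plain library totals complex V, as given above, also separated skin from both, and complex III separated meninges (lowest 161.8 CPM) from skin (highest 146.2 CPM). With mitochondrially encoded counts left out of the totals neither did, and in complex III the lowest meningeal sum was 202.9 CPM and the highest skin sum 206.6 CPM. Complex II in skin then reached 281.9 CPM, below the lowest diaphragm sum (321.6 CPM) and meningeal sum (346.5 CPM). In complex II, meninges and diaphragm overlapped on the TMM scale at Meninges 2 and Diaphragm 1. They did not on plain library totals, where the lowest meningeal sum was 303.1 CPM and the highest diaphragm sum 275.5 CPM. With mitochondrially encoded counts left out they overlapped again (346.5 and 351.0 CPM). The 4 genes did not share 1 pattern, and none passed the test across all genes in any of the 3 comparisons.

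Sdhd, the small membrane anchor subunit, stood at 45.45, 29.0 and 33.7 CPM in meninges and 1.11, 11.2 and 7.88 CPM in diaphragm, against 13.4, 22.45 and 8.68 CPM in skin. The meningeal libraries lay above all 6 others. The log2 fold change was 2.42 (SE 1.14) for meninges over diaphragm and 1.28 (SE 1.09) for meninges over skin, with adjusted p-values of 0.506 and 0.734 (edgeR quasi-likelihood test, Benjamini-Hochberg over all tested genes).

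Sdhb, the iron-sulfur subunit, showed the same separation, with 24.8, 40.2 and 29.2 CPM in meninges and 9.43, 2.58 and 8.74 CPM in diaphragm, against 7.31, 7.39 and 0.0457 CPM in skin. Its log2 fold change was 2.18 (SE 1.48) over diaphragm and 2.67 (SE 1.505) over skin, with edgeR adjusted p-values of 0.757 and 0.495. Sdha, the flavoprotein that oxidizes succinate and the most abundant of the 4 per kilobase (52.5 CPM per kilobase), had 173.8, 121.1 and 258.9 CPM in meninges and 222.9, 147.6 and 136.8 CPM in diaphragm, against 90.3, 131.5 and 86.3 CPM in skin. For Sdha, diaphragm lay above skin without overlap, while meninges overlapped skin at 121.1 CPM. Sdhc, the other membrane anchor, overlapped between the tissues in every pair, with means of 53.0 and 61.9 CPM in meninges and diaphragm, against 39.4 CPM in skin.

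**Figure D3:**
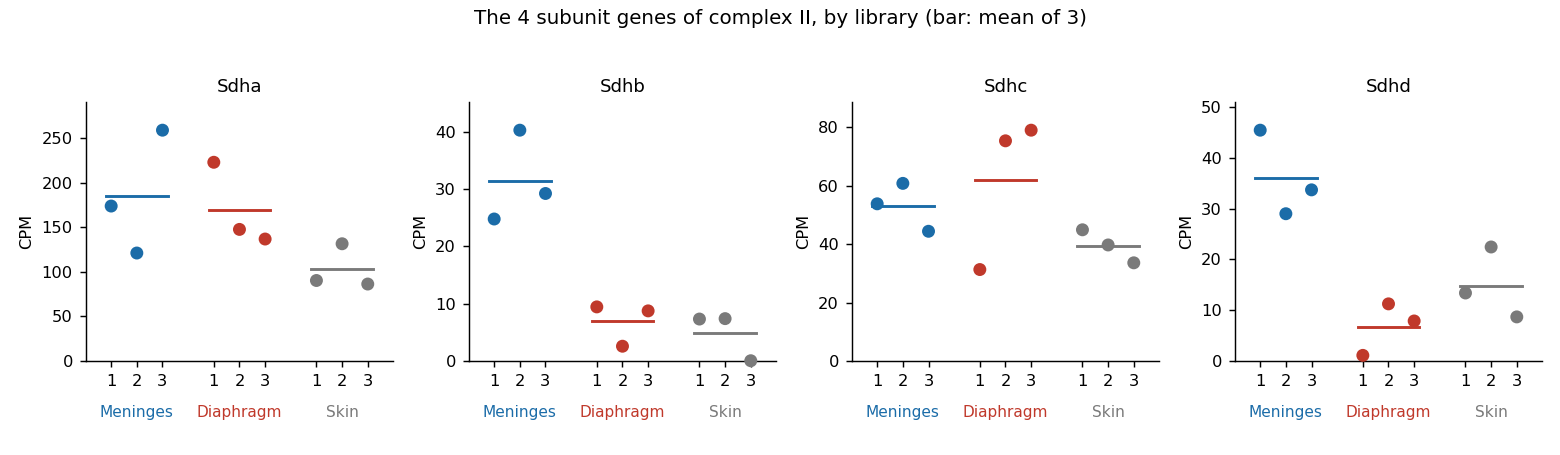
CPM of Sdha, Sdhb, Sdhc and Sdhd (vertical axes, each from 0) in each of 3 libraries of meninges, diaphragm and skin (points), with the tissue mean as a bar. The meningeal points of Sdhb and Sdhd, from 24.8 and from 29.0 CPM upward, lie above all other points of the same gene.

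The comparison of meninges with diaphragm asked which respiratory chain genes differ between lymphatic cells of the brain coverings and of a peripheral muscle. Of the 95 genes that passed the filter on low counts, 0 were called at an adjusted p under 0.05 (edgeR), where 0.344% of all 14831 tested genes were called, and 2 had an unadjusted p under 0.05, Cox6a2 and Cox8b, where 10.1% of all tested genes had such a p. The median log2 fold change over the 95 genes was 0.07, beside 0.05 over all tested genes, and 65 of the 95 lay within 1 log2 unit of 0. The remaining 4 gene rows, Cox11, Cox20, Cox6b2 and Ndufa4l2, and all 12 pseudogene and second rows were too low to be tested. Genes whose 3 meningeal libraries all lay above the 3 diaphragm libraries numbered 5 of 95 (5.26%), against 10.4% of all tested genes, and those all below numbered 6 (6.32%), against 6.7%. The 5 were Sdhb, Sdhd, Atp5d, Ndufs4 and Cox14, and the 6 were Cox6a2, Cox8b, Ndufaf3, Ndufaf6, Ndufs3 and Atp5c1. Cox6a2 and Cox8b had counts in diaphragm alone and passed the filter only through it, so their direction was fixed in advance. Ndufaf6, with at most 30 counts in a library outside diaphragm, would not have passed without diaphragm either, so its direction was not free of the filter.

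Between meninges and skin, edgeR also called 0 of 95 genes, where 1.32% of all tested genes were called. An unadjusted p under 0.05 was reached by 0 of the 95, where 13.8% of all tested genes had such a p. The median log2 fold change was 0.02, beside 0.08 over all tested genes, and the smallest adjusted p was 0.413, for Sdha. No overlap was seen for 9 genes higher in meninges (9.47%, against 12.9% of all tested genes) and 3 lower (3.16%, against 7.34%). Without Skin 2 the median was 0.43.

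Between diaphragm and skin, edgeR called 0 of 95 genes, where 0.0405% of all tested genes were called. An unadjusted p under 0.05 was reached by 6 genes, all higher in diaphragm (Cox6a2, Cox8b, Ndufa2, Ndufaf6, Atp5a1 and Atp5j2), which is 6 of 95 where 11.8% of all tested genes had such a p. The median log2 fold change was -0.03, beside 0.01 over all tested genes. No overlap was seen for 10 genes higher in diaphragm (10.5%, against 7.54% of all tested genes) and 2 lower, Ndufa9 and Cox5b (2.11%, against 5.95%). Among both the 6 and the 10 are Cox6a2 and Cox8b, which passed the filter only through diaphragm, so their direction was fixed in advance. Ndufaf6 is also among both and would not have passed without diaphragm, so its direction was not free of the filter. The comparisons share libraries, so their values are not independent of each other.

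**Figure D4:**
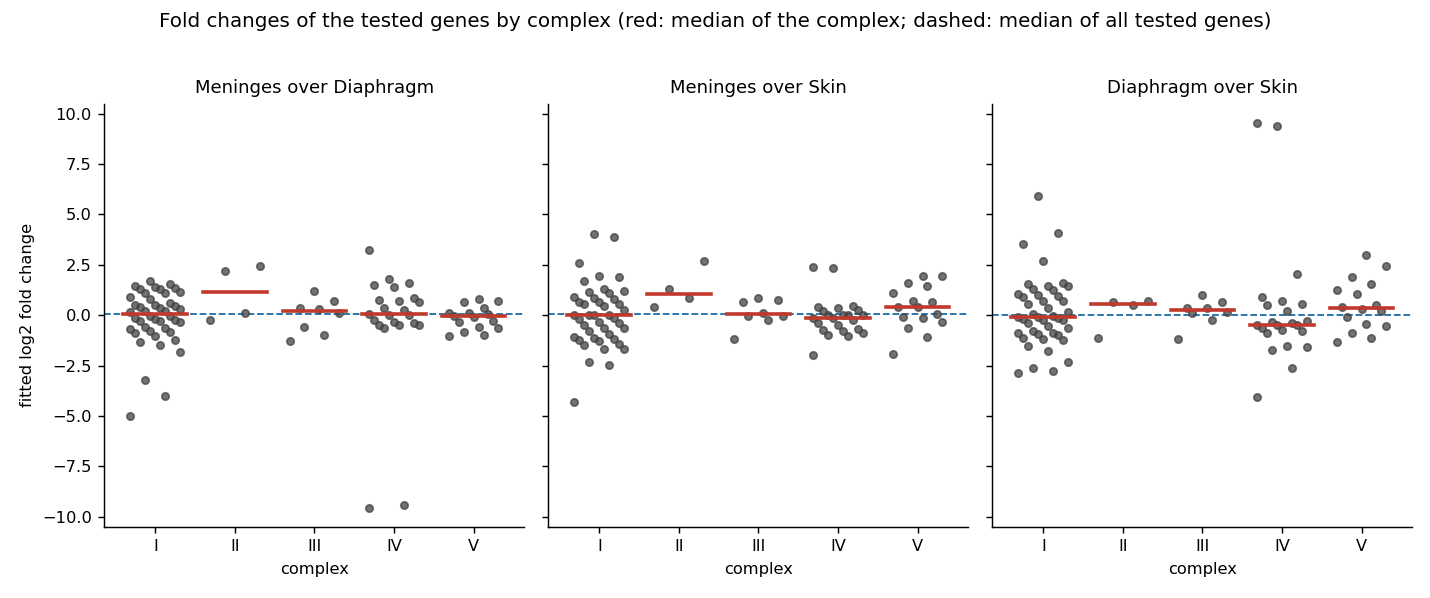
Fitted log2 fold change (vertical axis) of each tested gene (points) by complex, for meninges over diaphragm, meninges over skin and diaphragm over skin, with the median of each complex in red and that of all tested genes dashed. Of the 95 points, 65, 59 and 56 lie within 1 log2 unit of 0 in the 3 panels. The 2 points beyond 9 log2 units in both panels with diaphragm are Cox6a2 and Cox8b. They had no count in meninges or skin, so for meninges over skin they stand at 0.

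A second count test, DESeq2's Wald test, called a few of them. It called 3 members between meninges and diaphragm (Cox6a2, Cox8b and Ndufaf6), where 6.03% of all genes it tested were called, 3 between meninges and skin (Ndufa2, Ndufb6 and Ndufs3), where 9.34% were, and 5 between diaphragm and skin (Cox6a2, Cox8b, Ndufa2, Ndufaf6 and Atp5j2), where 6.79% were. None of these was called by edgeR, whose adjusted p-values for the same genes ran from 0.324 to 0.641. These genes are described next by their values.

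Ndufa2, an accessory subunit of complex I, had 12.8, 29.2 and 17.1 CPM in meninges and 30.2, 28.6 and 42.1 CPM in diaphragm, against 3.71, 8.56 and 3.20 CPM in skin. Skin lay below both other tissues without overlap. The log2 fold change of diaphragm over skin was 2.70 (edgeR SE 1.05), with an adjusted p of 0.37 in edgeR and 0.000211 in DESeq2.

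Ndufaf6, an assembly factor of complex I, had 0.939, 0.375 and 0.0793 CPM in meninges and 2.47, 7.20 and 13.2 CPM in diaphragm, against 0.116, 0.244 and 0 CPM in skin. Every diaphragm library lay above the 6 others, though the gene would not have passed the filter on low counts without diaphragm. Its log2 fold change was -4.03 (edgeR SE 2.29) for meninges over diaphragm and 5.93 (edgeR SE 2.52) for diaphragm over skin, with edgeR adjusted p-values of 0.641 and 0.389. Atp5j2, a membrane subunit of the synthase, had 16.9, 17.8 and 24.0 CPM in meninges and 19.8, 69.0 and 28.6 CPM in diaphragm, against 10.4, 8.36 and 2.88 CPM in skin.

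Ndufs3, a core subunit of the matrix arm of complex I, lay lower in meninges than in either other tissue, with 8.01, 6.69 and 11.5 CPM in meninges and 12.1, 17.0 and 13.2 CPM in diaphragm, against 24.7, 41.0 and 16.8 CPM in skin. The meningeal values did not overlap with the others, and the edgeR adjusted p was 0.946 for meninges over diaphragm and 0.575 for meninges over skin. Ndufb6, an accessory subunit of the membrane arm, had 5.20, 2.38 and 10.9 CPM in meninges and 7.002, 5.57 and 0.645 CPM in diaphragm, against 0.194, 0.934 and 0 CPM in skin.

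Within complex I, the core gene Ndufs1, an iron-sulfur subunit of the matrix arm, had a mean of 50.04 CPM. Its log2 fold change was -0.87 (SE 0.76) for meninges over diaphragm and 0.01 (SE 0.75) for meninges over skin, with edgeR adjusted p-values of 0.865 and 0.999. Ndufs4, an accessory subunit, had the highest log2 fold change of its complex for meninges over diaphragm, 1.68 (SE 1.11, edgeR adjusted p 0.742). The lowest was that of the assembly factor Ndufaf1, at -5.01 (SE 2.95, edgeR adjusted p 0.664). Ndufaf1 had 0.344, 0.281 and 0.211 CPM in meninges and 0, 23.4 and 3.94 CPM in diaphragm, against 0, 16.4 and 0.0914 CPM in skin, so that single libraries of diaphragm and skin carried its level. For meninges over skin the ends of the complex were Ndufb6, at 4.02 (SE 2.31, edgeR adjusted p 0.508), and Ndufaf1, at -4.28 (SE 2.85, edgeR adjusted p 0.600).

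In complex III, the core protein gene Uqcrc1 and the hinge protein gene Uqcrh had the highest mean CPM (31.2 and 30.7). Its 8 genes had log2 fold changes of meninges over diaphragm between -1.28 (Uqcrq, a small subunit) and 1.18 (Uqcr11, another), with a median of 0.22. Over skin they lay between -1.17 (Uqcrq) and 0.87 (Uqcrb, a small subunit next to cytochrome b).

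In complex IV, Cox7a2l and Cox4i1, a structural subunit, had the highest mean CPM (68.2 and 52.2). Cox7a2l is listed as a factor of supercomplexes of complexes III and IV, and its action in this mouse strain was not tested. Cox14, an assembly factor that acts on the mitochondrially made Cox1 protein, had the highest log2 fold change for meninges over diaphragm, 3.25 (SE 2.04, edgeR adjusted p 0.711). It had 16.5, 5.03 and 3.83 CPM in meninges and 0.332, 2.31 and 0 CPM in diaphragm, against 1.39, 9.90 and 32.7 CPM in skin, which overlapped with meninges. For meninges over skin, Cox16, an assembly factor, was highest at 2.40 (SE 2.17, edgeR adjusted p 0.755) and the isoform Cox4i2 lowest at -1.98 (SE 2.89, edgeR adjusted p 0.873).

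In complex V, Atp5b had log2 fold changes of -0.04 (SE 0.41) and -0.13 (SE 0.41) for meninges over diaphragm and over skin, among the smallest SEs of the 95 genes. Atp5a1 had 366.1, 266.2 and 275.2 CPM in meninges and 248.2, 314.6 and 577.0 CPM in diaphragm, against 160.6, 157.7 and 238.5 CPM in skin, which lay below both other tissues without overlap. Its log2 fold change of diaphragm over skin was 1.03 (SE 0.38, edgeR adjusted p 0.360). For meninges over diaphragm the ends of the complex were Atp5d, the delta subunit of F1, at 0.78 (SE 1.02, edgeR adjusted p 0.929), and Atp5g2, a gene of the c ring, at -1.04 (SE 2.43, edgeR adjusted p 0.973). For meninges over skin they were Atp5g2 at 1.96 (SE 2.498, edgeR adjusted p 0.850) and Atp5s, a coupling factor, at -1.95 (SE 2.51, edgeR adjusted p 0.852). None of these passed the test.

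Several subunits of complex IV exist as a general isoform and an alternative that is known from particular tissues. Cox6a2 and Cox8b are the isoforms of heart and skeletal muscle, and Cox8b is also known from brown fat. Cox6a2 had 24, 83 and 161 counts in the diaphragm libraries and 0 in all 6 libraries of meninges and skin. Cox8b had 176, 14 and 53 counts in the diaphragm libraries and likewise 0 in the 6 others. These were the members whose presence followed tissue, a pattern not particular to them. The mesothelial markers Upk3b, Lrrn4 and Muc16 were likewise counted in every diaphragm library and in none of the 6 others. Upk3b had 9647, 15 and 67 counts in diaphragm, Lrrn4 2087, 114 and 797, and Muc16 14723, 694 and 1041. The mesothelial markers Msln and Krt19 were not counted in every diaphragm library. The share of all genes with this pattern was not determined.

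Against a floor of 3 counts over the 3 libraries of a tissue, Cox6a2 was at least 112-fold higher in diaphragm than in meninges and at least 79.3-fold higher than in skin. Cox8b was at least 101-fold higher than in meninges and at least 71.9-fold higher than in skin. Single libraries carried much of these bounds. Without Diaphragm 1, with most of its counts, the bounds of Cox8b were 41.8-fold over meninges and 29.8-fold over skin, and without Diaphragm 3 those of Cox6a2 were 67.8-fold and 48.2-fold, a choice made after the data were seen. The bounds cover counting error only. The fitted log2 fold change of meninges over diaphragm, which depends on the prior count, was -9.54 for Cox6a2 and -9.40 for Cox8b, with edgeR adjusted p-values of 0.324 and 0.327.

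Of the 2 isoforms of each pair, the muscle form was the minor one per kilobase in diaphragm. Cox6a2 made up 1.59%, 7.93% and 18.8% of the pair Cox6a1 and Cox6a2 in Diaphragm 1, 2 and 3. Cox8b made up 28.5%, 1.58% and 17.2% of the pair Cox8a and Cox8b. The library with the highest share of one isoform was not that with the highest share of the other. The general isoforms were present in all 9 libraries, Cox6a1 at 8.19 to 102.5 CPM and Cox8a at 5.80 to 50.3 CPM, and overlapped between tissues.

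The summed skeletal muscle markers were, like these isoforms, highest in diaphragm, but the sum did not follow them library by library. The 13 of 14 listed markers with a row summed to 394.3, 1108 and 402.6 CPM in Diaphragm 1, 2 and 3, against 23.2 to 62.2 CPM in meninges and 83.6 to 269.2 CPM in skin. In meninges, Ckm, Myh4, Pvalb and Mylpf were at 0 in all libraries, in skin Myh1, Actn3, Pvalb and Des were, and in diaphragm none was. Ttn held much of the sum in meninges and skin, and all of it in Skin 3 (269.2 CPM). It was called lower in meninges than in diaphragm (log2 fold change -3.60, SE 0.70, edgeR adjusted p 0.0478). Within diaphragm the sum was highest in Diaphragm 2, which had the fewest counts of Cox8b, while Cox6a2 was highest in Diaphragm 3. Ttn (572.4 CPM) and Myh4 (144.3 CPM) held much of the sum in Diaphragm 2. Single markers differed in their order. Ckm (0.774, 1.86 and 4.44 CPM) and Mb (0.885, 41.9 and 44.4 CPM) rose from Diaphragm 1 to 3, as Cox6a2 did. Mylpf (40.5, 11.2 and 19.5 CPM) had the order of Cox8b, and the other markers had neither order. In Skin 2, Tnnt3 was at 24.8, Atp2a1 at 14.9 and Acta1 at 10.8 CPM. Ckm was at 0.162 CPM there, and Myh1, Des, Cox6a2 and Cox8b were at 0. The 3 of 7 adipocyte markers with a row summed to 169.5, 74.1 and 110.9 CPM in diaphragm, against 2.75 to 21.5 CPM in meninges and 1.10 to 21.2 CPM in skin. Nearly all of this was Fabp4, which endothelial cells are also known to express, and Ucp1, which marks brown fat, had 0.25 CPM in Diaphragm 3 and was 0 elsewhere. The part of muscle or fat cells in the counts of Cox6a2 and Cox8b was not tested.

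**Figure D5:**
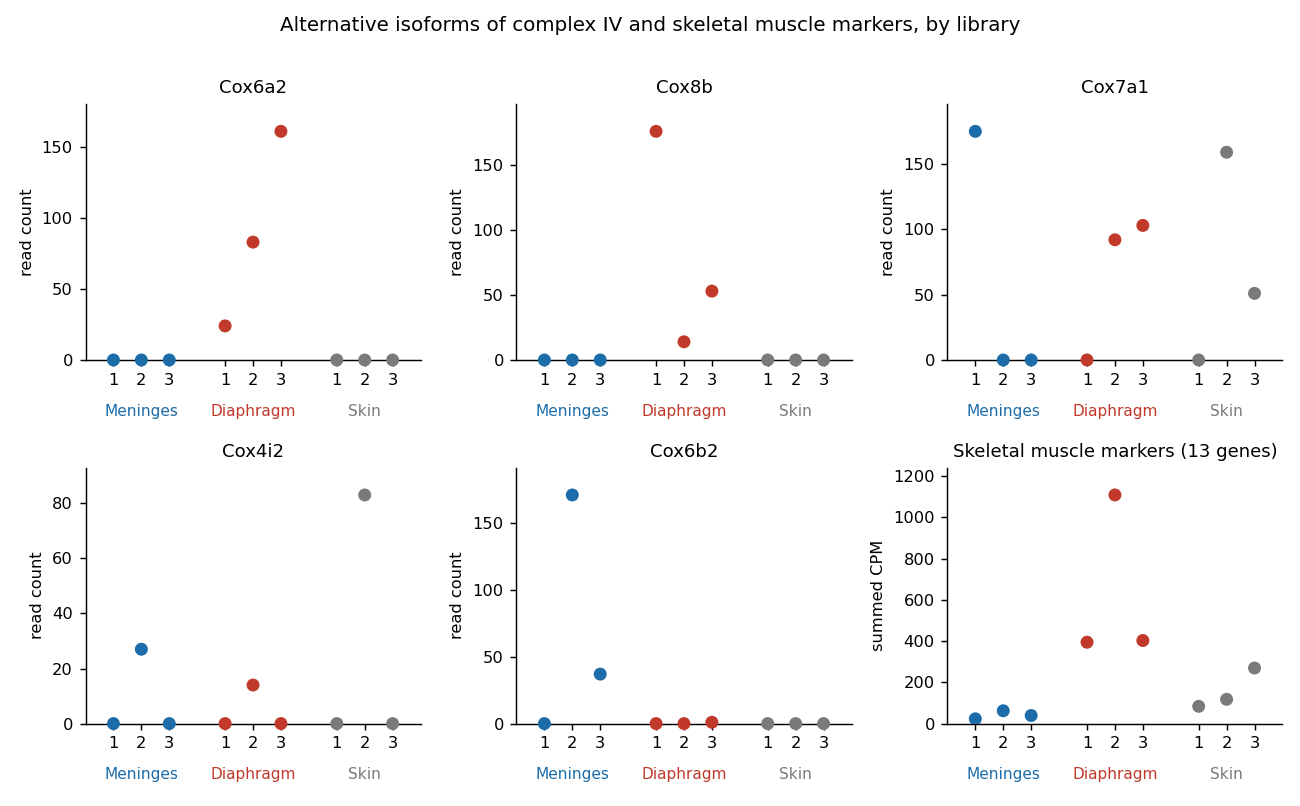
Read counts of 5 alternative isoforms of complex IV and the summed CPM of 13 skeletal muscle markers (vertical axes, each from 0) in each of 3 libraries of meninges, diaphragm and skin (points). Cox6a2 and Cox8b were counted in the 3 diaphragm libraries and in no other, while Cox7a1 and Cox4i2 were counted in some libraries of every tissue and Cox6b2 in 2 meningeal and 1 diaphragm library.

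The other alternative isoforms did not follow tissue. Cox7a1, known from heart and muscle and also from brown fat, had 175, 0 and 0 counts in meninges and 0, 92 and 103 in diaphragm, against 0, 159 and 51 in skin. Where present it made up 11.4% to 47.6% of the pair Cox7a2 and Cox7a1 per kilobase. Cox4i2, known from lung and from oxygen-sensing cells, had 0, 27 and 0 counts in meninges and 0, 14 and 0 in diaphragm, against 0, 83 and 0 in skin, and never exceeded 4.73% of its pair. Cox6b2, the testis isoform, had 0, 171 and 37 counts in meninges and 0, 0 and 1 in diaphragm, against 0 in all 3 skin libraries. Ndufa4l2, which is known to rise in low oxygen, had 6 counts in Meninges 3 and 0 in the 8 other libraries. Each was at 0 in at least 1 library of every tissue in which it was found.

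The c ring of the ATP synthase is built from 1 protein that 3 genes encode. Atp5g3 held most of the counts of these 3 genes per kilobase, 91.7% ± 6.69 in meninges and 87.2% ± 3.64 in diaphragm, against 90.4% ± 12.4 in skin (SD, n = 3 each). Without division by transcript length its share was 75.2% and 65.9% in meninges and diaphragm, against 78.7% in skin, as the Atp5g1 transcript used here is the longest of the 3 (4715 bases). Most of the Atp5g2 transcript and a smaller part of that of Atp5g1 match other genes nearly exactly, so these shares are uncertain.

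The promoters of the muscle form and the general form can be set side by side for Cox8a and Cox8b, and Cox6a1 and Atp5g3 are shown because they hold a motif of a factor known to act on respiratory chain genes. The bases come from RefSeq (GRCm38.p6), read 5′ to 3′ on the strand of the gene, and lie before its annotated start and outside every exon of GENCODE M21. Cox8a and Cox8b run from 200 bases before the start to the last base before it (chr19:7217617-7217816 and chr7:140900447-140900646, both on the minus strand), and so does Atp5g3 (chr2:73911327-73911526, minus strand). The stretch of Cox6a1 ends 31 bases before its start (chr5:115348989-115349129, minus strand). Capitals mark the motif, of the factor NRF1 in Cox6a1 and of the estrogen-related receptors in Atp5g3.
Cox8b: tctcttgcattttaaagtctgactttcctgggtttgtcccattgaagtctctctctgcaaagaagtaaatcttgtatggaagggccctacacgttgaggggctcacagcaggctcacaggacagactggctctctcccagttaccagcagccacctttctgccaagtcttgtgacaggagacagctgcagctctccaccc
Cox8a: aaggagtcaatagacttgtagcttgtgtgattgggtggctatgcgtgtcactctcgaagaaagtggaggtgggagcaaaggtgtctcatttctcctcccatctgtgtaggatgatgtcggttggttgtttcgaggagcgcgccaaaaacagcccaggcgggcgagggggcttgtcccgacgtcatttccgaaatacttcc
Cox6a1: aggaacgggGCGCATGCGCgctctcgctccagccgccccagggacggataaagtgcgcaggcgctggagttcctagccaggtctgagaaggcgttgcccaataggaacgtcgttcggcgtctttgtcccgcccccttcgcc
Atp5g3: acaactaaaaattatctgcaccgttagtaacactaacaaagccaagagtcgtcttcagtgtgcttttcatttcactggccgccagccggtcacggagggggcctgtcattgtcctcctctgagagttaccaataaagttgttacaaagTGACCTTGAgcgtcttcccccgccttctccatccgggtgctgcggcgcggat

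A RefSeq promoter, 250 bases before to 50 after the start, was at hand for 82 of the 99 genes. The letters GCGCATGCG, the core of the NRF1 motif, stood on either strand in 10 of these 82 genes (12.2%), against 1.95% of all 27025 genes of the same promoter table. The 10 were Ndufa8, Ndufa11, Ndufaf4, Ndufaf5, Uqcr11, Uqcrc1, Cox6a1, Atp5g2, Atp5k and Atp5l. The letters CCGGAAGTG, bound by GABP, were found in 4 of 82 (4.88%, against 2.25%), namely Ndufs3, Uqcrh, Cox10 and Cox15. The letters TCAAGGTCA, bound by the estrogen-related receptors, were found in Sdhd and Atp5g3 (2.44%, against 0.47%). Neither Cox8a nor Cox8b held any of the 3. The 3 motifs stood in different genes, and a match describes letters only.

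How far the members varied was measured over the 9 libraries. The median coefficient of variation of the 95 tested members was 72.0%, beside 96.0% over all tested genes, which include many of lower level. The steadiest were Atp5f1 (28.4%), a stalk subunit, Atp5b (33.0%) and Sdhc (33.5%). By complex the median ran from 56.6% for complex II to 80.6% for complex I. The spread within a tissue was smallest in meninges, where 2 of 95 members had a highest level at least 10-fold over the lowest (after adding 1 CPM), against 13 in diaphragm and 24 in skin, and over all tested genes these shares were 11.7% in meninges, 17.9% in diaphragm and 20.0% in skin.

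The order of the 95 genes was compared between libraries by Spearman's rho, as a description across genes, which are not independent and share their transcript lengths and copies. It was 0.722 to 0.843 between meningeal libraries and 0.567 to 0.676 between diaphragm libraries, against 0.473 to 0.668 between skin libraries. Between tissues it was 0.571 to 0.751 for meninges with diaphragm, 0.572 to 0.765 for meninges with skin and 0.501 to 0.664 for diaphragm with skin. The median between meningeal libraries, 0.737, lay above the medians of meninges with diaphragm (0.671) and with skin (0.634). The other tissues did not share this. The median between diaphragm libraries, 0.596, lay below that of meninges with diaphragm and above that of diaphragm with skin (0.555). The median between skin libraries, 0.552, lay below those of skin with either other tissue.

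The proteins made in the mitochondrion complete complexes I, III, IV and V. Of the 13 mitochondrial genes, 11 had a row and 7 enough counts to be tested, and mt-Co2, mt-Atp6, mt-Nd3 and mt-Nd4l had at most 4 counts in any library. The handling of multiply matching reads is not stated in any source used here. The ratio of the summed mitochondrial to the summed nuclear CPM was 8.49, 5.61 and 5.77 in meninges and 9.84, 10.4 and 11.8 in diaphragm, against 9.35, 12.1 and 13.7 in skin. The meningeal libraries lay below all others. The edgeR test called 0 of the 7 genes in any comparison, with 4 at an unadjusted p under 0.05 for meninges over diaphragm and 2 for meninges over skin, where 10.1% and 13.8% of all tested genes had such a p. The nearest were mt-Nd1 and mt-Co1 for meninges over skin, with log2 fold changes of -1.12 and -1.03 and an adjusted p of 0.0645 for both. The summed fibroblast markers given above also separated meninges from the other tissues, and their part in this ratio was not tested.

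The other lists of the pathway held no called gene either. Of 29 tested further nuclear genes of the chain, which include Cyc1 (1.24 to 91.8 CPM per library), the cytochrome subunit of complex III, and Cycs (0.69 to 15.1 CPM), cytochrome c itself, edgeR called 0 in each comparison, with 0 at an unadjusted p under 0.05 for meninges over diaphragm, 2 for meninges over skin and 0 for diaphragm over skin. Their median log2 fold changes were 0.14, -0.09 and -0.31. Among 14 tested genes listed as regulators of mitochondrial biogenesis, with the metal-responsive factor Mtf1 among them, it called 0, with 1, 0 and 1 at an unadjusted p under 0.05, and medians of 0.12, 0.18 and -0.51. Gabpa, which encodes the DNA-binding subunit of GABP, was at 66.5 to 291.3 CPM. Ppargc1a, the coactivator of mitochondrial biogenesis, had 0, 23.5 and 0.42 CPM in meninges and 0.63, 0.08 and 15.8 CPM in diaphragm, against 0, 0.16 and 0 CPM in skin, with 1 high library in each of meninges and diaphragm.

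Of 16 tested citric acid cycle genes edgeR called 0, with 1, 1 and 1 at an unadjusted p under 0.05, and medians of -0.11, -0.19 and -0.52. Of 12 tested hypoxia-induced genes it called 0, with 1, 3 and 3 at an unadjusted p under 0.05, and medians of -0.09, 0.28 and -0.53. In each of these 4 lists the 3 values stand for meninges over diaphragm, meninges over skin and diaphragm over skin, where 10.1%, 13.8% and 11.8% of all tested genes had an unadjusted p under 0.05.

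Near-identical copies limit some of these values. For 68 of the 99 genes no stretch of at least 50 bases matched another gene at 95% identity, for 17 such stretches covered a smaller part of the transcript, and for 14 they covered most of it. Among the genes named for a result here, Sdha, Sdhb, Sdhc, Sdhd, Cox6a2, Cox8b, Cox7a1, Cox4i2, Ndufa2, Ndufaf6, Ndufb6, Atp5a1, Atp5b and Atp5j2 had none. Ndufs3, Atp5c1, Atp5f1, Atp5g2, Atp5h, Atp5k, Atp5l, Uqcrb, Cox5b and Cox20 were among the 14, and their counts, and with them their levels, ranks and fold changes above, are uncertain. Cox6c, Cox7a2l, Cox15, Cox19, Atp5g1 and Uqcr11 were among the 17, and their counts are uncertain in part. The pseudogene rows themselves held at most 45 counts in a library, apart from Ndufa11b with up to 228.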

How the data were processed

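Per the labels' protocols, RNA came from a PicoPure extraction and was amplified with the NuGEN Ovation kit. Analysed were the read counts per Ensembl gene that the authors deposited, 1 column per library, and the submitters' processing notes name FastQC, STAR, HTSeq and mm9. No source used here states versions, annotation, strandedness or how multiply matching reads were handled, so counts of overlapping or antisense genes and of near-identical copies are uncertain. Every library column of the table was used. Amplified reads are not independent molecules, so floors of 3 counts cover counting error only.

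The members and the gene lists were chosen with earlier results of these data known. Groups are the tissues of the labels. All 9 libraries were fitted together with 1 mean per tissue in edgeR 4.0.16 (filterByExpr, TMM, quasi-likelihood test) under R 4.3.3, with Benjamini-Hochberg adjustment over all 14831 genes tested and a threshold of 0.05. The script was tested on simulated data. The common biological coefficient of variation was 1.243. Standard errors are the log2 fold change divided by the root of F. Levels per kilobase used 1 GENCODE M21 transcript per gene, and near-identical copies were sought with BLAST 2.17.0. The genes named were the isoform pairs, the Sdh genes, for each complex the 2 with the highest level and those with the highest and lowest log2 fold change over diaphragm and over skin, and called members. Genes outside that rule, among them those called by DESeq2, those without overlap and the levels at both ends, were named after their values were seen. A gene of complex I is counted in the totals and not reported here. Alternatives were DESeq2 1.42.0, its size factors, upper-quartile factors, no filter, 50 counts in 3 libraries, 2 tissues only, a replicate block, voom with quality weights in limma 3.58.1, removal of mitochondrially encoded genes and each library left out. The bounds without single diaphragm libraries were added after the data were seen.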

Additional observations from a re-analysis of the deposited data

How the results depend on the processing

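Under every alternative but DESeq2 the number of members called stayed at 0 in each comparison, and leaving out 1 library gave 0 to 0. DESeq2 called 3, 3 and 5 members for meninges over diaphragm, meninges over skin and diaphragm over skin, and the cause of the difference between the tools was not tested. The median log2 fold change of the members ran from -0.14 to 0.25, from -0.11 to 0.43 and from -0.07 to 0.31 when 1 library was left out, with 0.43 for meninges over skin without Skin 2. Of 194 alternative values of single members, 183 kept their direction and their side of the threshold and 11 passed it, all with DESeq2. The members followed here were those that DESeq2 called, so these 11 were fixed in advance. The 194 values are therefore not a neutral sample of the members. Over all genes, the calls for meninges over diaphragm were 51 in the analysis reported here, 926 with DESeq2, 298 without the filter, 108 with 2 tissues only, 200 with voom and 19 to 105 without 1 library. For meninges over skin they were 196, then 1435 with DESeq2, 610 without the filter, 414 with voom and 74 to 236 without 1 library. For diaphragm over skin they were 6, then 1018 with DESeq2, 305 without the filter, 13 with 50 counts in 3 libraries, 1 with 2 tissues only, 1 with voom and 2 to 58 without 1 library. Libraries with the same number did not vary together (correlations of deviations from the tissue means from -0.0205 to 0.0512), and with the replicate number as a block 0 members were called in each comparison, the members' medians were 0.12, 0.24 and -0.02, and 70, 231 and 16 genes were called in all. Of 30 alternative sums per complex, 16 moved by more than 1 SD, mostly when mitochondrially encoded counts were left out of the library total, and 2 of 18 isoform shares did. Without 1 diaphragm library the bounds on Cox6a2 ran from 67.8 to 152-fold over meninges and from 48.2 to 108-fold over skin, and those on Cox8b from 41.8 to 141-fold and from 29.8 to 100.3-fold. The 9 libraries and a common coefficient of variation of 1.243 limit what differences a test could call, and members at a few counts per library carry the largest standard errors.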
